A study of Homo sapiens with 8 samples.

Results

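The cell lines H820 and H1975 had higher NKX2-1 RNA than H23 and EBC1, and the genes that separated the 2 pairs of lines are described here. A gene belonged to the set when it met 2 conditions. It passed the test of the mean of H820 and H1975 against the mean of H23 and EBC1 at an adjusted p under 0.05, and its 4 H820 and H1975 libraries lay all above, or all below, its 4 H23 and EBC1 libraries. Of 24185 genes tested, 2284 were higher in H820 and H1975 and 2068 were lower, 4352 in all. Each of the 4 established non-small cell lung cancer lines gave 2 RNA libraries, 8 in all. The cells were grown as pneumospheres, which are spheres of tumour cells floating in serum-free medium with fibroblast and epithelial growth factors and B-27. H820, H1975 and H23 are labelled adenocarcinoma and EBC1 squamous cell carcinoma. In each line 1 library came from spheres exposed for 15 min, in serum-free conditions, to PD-L1s, which is synthetic PD-L1 checkpoint protein in soluble form (25 µg/ml). The other library of each line came from untreated spheres. Every group is thus 1 line, and nothing in the labels says that a line was sampled from more than 1 culture per condition.

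The lines had been paired by the readout itself, since H820 and H1975 were the lines with the higher NKX2-1 level, and the genes were chosen by their order across the same 8 libraries. Levels of the chosen genes are therefore a description, with no test. Levels are in CPM, counts scaled to the library total after TMM, a factor that evens out composition between libraries. Differences are log2 values, the mean of H820 and H1975 minus the mean of H23 and EBC1 from the edgeR fit. The standard error beside them was derived from the F statistic of that fit to all 8 libraries. It rests on the spread within lines left after the treatment term. Such an error carries no information on the spread between tumours. In RNA from whole spheres, fewer cells that express a gene and less RNA per cell cannot be told apart.

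NKX2-1 encodes a homeodomain transcription factor that sets lung and thyroid identity and is a diagnostic marker of lung adenocarcinoma. In lung epithelium it drives surfactant and club cell genes, and in mouse lung tumours its loss is followed by gastric genes. ERBB3, the second marker of these lines, is a receptor with little kinase activity of its own that signals by pairing with EGFR or ERBB2. H820 and H1975 are known for activating EGFR mutations and EBC1 for MET amplification. The NKX2-1 level, the driver and every other trait that separates these lines cannot be told apart with 2 lines a side.

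NKX2-1, on chromosome 14 at 36985597 to 36990354 (GRCh37, minus strand), had 54.0 and 35.6 CPM in treated and untreated H820 and 75.2 and 78.5 CPM in treated and untreated H1975. In H23 it had 5.68 and 5.46 CPM, and in EBC1 0.224 and 0 CPM, treated and untreated. H23 therefore held a low but detected level and EBC1 almost none, and the log2 difference was 5.88 ± 0.20. SFTA3, a surfactant-associated gene that lies next to NKX2-1 on the same strand, had 12.4, 10.2, 15.0 and 16.8 CPM in treated and untreated H820 and treated and untreated H1975. It had 0.402 and 0.321 CPM in H23 and 0 in both EBC1 libraries, a log2 difference of 8.07 ± 0.34.

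Of 22 genes tested within 1 Mb of NKX2-1, 5 were higher in H820 and H1975 and 0 were lower. They were NKX2-1, SFTA3, the antisense transcript NKX2-1-AS1, the transcript RP11-896J10.3 and PAX9, a paired-box factor of foregut development that is also used as a squamous marker. RP11-896J10.3 spans both SFTA3 and NKX2-1 on their strand, so the 3 genes share reads. NKX2-1 itself was among the 5 through the choice of the lines. Over all genes tested 9.44% were higher and 8.55% lower, and on chromosome 14 15.9% and 2.71%. PAX9 had 34.9, 25.9, 21.2 and 21.6 CPM in H820 and H1975, against 2.01, 1.45, 19.6 and 18.4 CPM in H23 and EBC1. Its separation was narrow because EBC1 came close to H1975. Neighbours on either side did not follow. MBIP, which in many lung tumours is amplified with NKX2-1, had 31.6, 20.8, 24.9 and 24.8 CPM in H820 and H1975, against 18.7, 17.8, 48.9 and 46.5 CPM in H23 and EBC1. NKX2-8, a homeobox gene of the same block, had at most 2.58 CPM in H820 and H1975 and 3.52 and 3.57 CPM in treated and untreated H23.

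The promoters of NKX2-1 and SFTA3 are shown because these neighbours were high and low in the same lines. Each holds 250 bases before and 50 bases after the RefSeq start (GRCh38.p14, chr14:36520183-36520482 and chr14:36519507-36519806, both minus strand). Capitals mark CTCAAG, the core of the NKX2-1 binding motif, on either strand.
NKX2-1: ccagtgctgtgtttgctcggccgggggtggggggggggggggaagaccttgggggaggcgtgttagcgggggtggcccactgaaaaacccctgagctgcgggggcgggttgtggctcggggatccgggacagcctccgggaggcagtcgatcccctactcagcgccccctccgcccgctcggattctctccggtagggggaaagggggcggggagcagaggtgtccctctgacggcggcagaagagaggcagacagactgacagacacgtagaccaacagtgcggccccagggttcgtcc
SFTA3: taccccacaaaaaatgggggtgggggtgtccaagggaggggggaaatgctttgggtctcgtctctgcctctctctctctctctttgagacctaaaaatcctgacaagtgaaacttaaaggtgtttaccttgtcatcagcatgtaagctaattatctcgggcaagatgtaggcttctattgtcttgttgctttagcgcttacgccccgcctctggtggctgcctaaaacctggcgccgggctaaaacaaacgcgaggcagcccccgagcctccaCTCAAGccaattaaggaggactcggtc
The word occurred 1 time in the SFTA3 window, 24 bases past the start, and not in the NKX2-1 window. It was present in 10.3% of the 13618 promoters of tested genes, in 11.3% of 1444 promoters of genes higher in H820 and H1975 and in 9.80% of 1398 promoters of genes lower in them. The word was thus about as frequent in genes of either direction as in all genes.

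**Figure D1:**
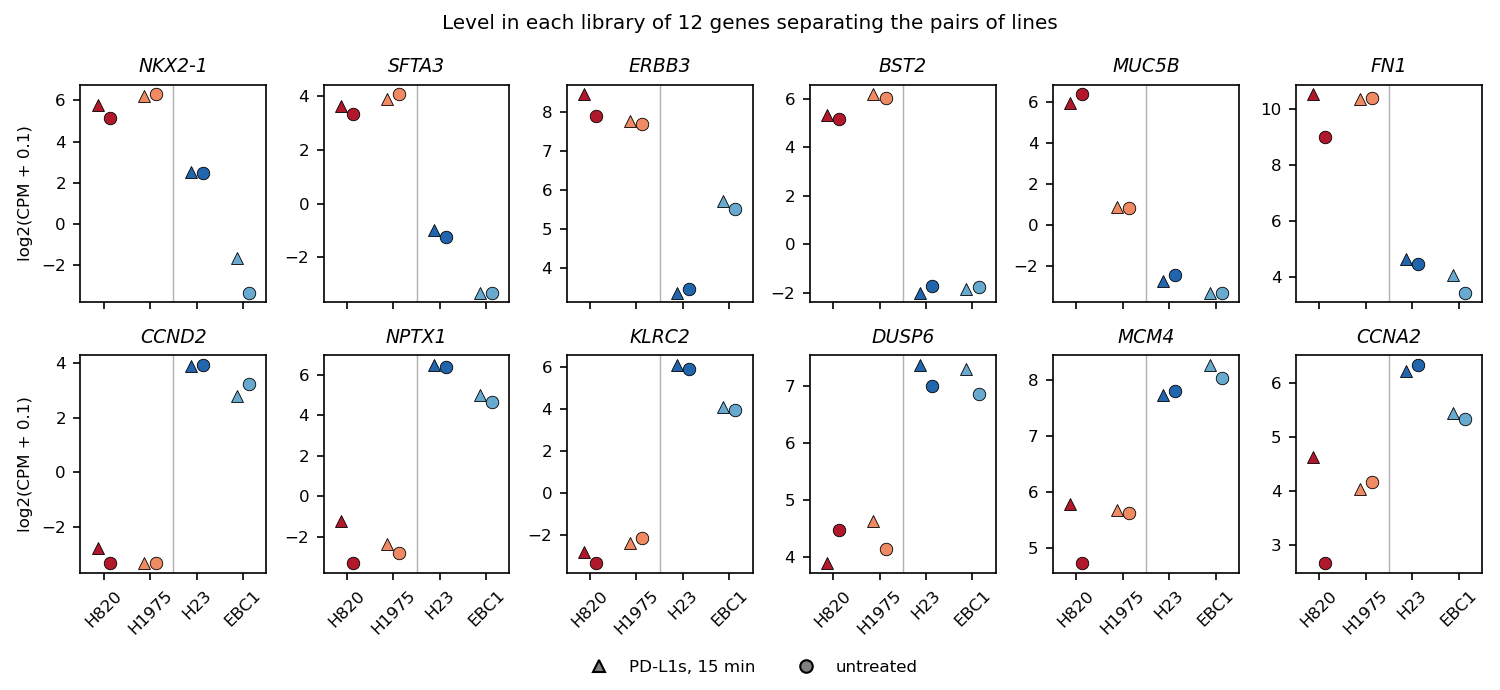
Level of 12 genes in each library, as log2(CPM + 0.1) on the vertical axis, with the lines along the horizontal axis, triangles for spheres given PD-L1s and circles for untreated spheres. Each point is 1 library. In each panel the 4 points of H820 and H1975, left of the grey line, lie all above or all below the 4 points of H23 and EBC1.

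Across the genome the mean test alone called 12996 genes, 53.7% of those tested, 7161 higher (29.6%) and 5835 lower (24.1%) in H820 and H1975. The order of the libraries was the stricter condition. Without overlap and called were 9.44% of tested genes in the higher direction and 8.55% in the lower, and the other 8644 called genes overlapped between the pairs. Those p-values rest on 2 libraries per line. With counts summed per line and the 2 lines of a pair as the replicates, edgeR's quasi-likelihood test called 0 genes after Benjamini-Hochberg adjustment, and the smallest adjusted p was 0.974. In that fit 920 genes, or 3.80% of those tested, had an unadjusted p under 0.05. The sets below describe these 4 lines only.

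Genes higher in H820 and H1975 had a median log2 difference of 1.74 and genes lower in them a median of 1.17 in size. Over all genes tested the median of the signed differences was 0.05. That value is not a size, since 12647 positive and 11538 negative differences offset each other in it. Of the higher genes, 647 differed by over 3 on the log2 scale and 267 by over 5. Of the lower genes, 266 and 121 did. Some were silent in 1 pair. In 51 higher genes all 4 H23 and EBC1 libraries were at 0 counts, and in 26 lower genes all 4 H820 and H1975 libraries were. The 2 lines of the pair with the higher level lay within 2-fold of each other in 69.7% of the higher genes and 79.0% of the lower genes. H820 stood above H1975 in 55.2% of the higher genes and 42.2% of the lower genes. Protein-coding genes made up 74.2% of the higher and 78.8% of the lower genes, against 65.3% of all genes tested.

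The threshold cut through a continuum. TAX1BP1 was just inside the higher set, with a lowest H820 or H1975 library of 192.6 CPM and a highest H23 or EBC1 library of 192.5 CPM. The transcript XXbac-BPG116M5.17, which overlaps CFB, was just outside it, with 499.0 and 499.3 CPM. CCDC50 was just inside the lower set, with a highest H820 or H1975 library of 64.11 CPM and a lowest H23 or EBC1 library of 64.12 CPM. DPYSL2 was just outside, with 109.8 CPM on both sides.

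**Figure D2:**
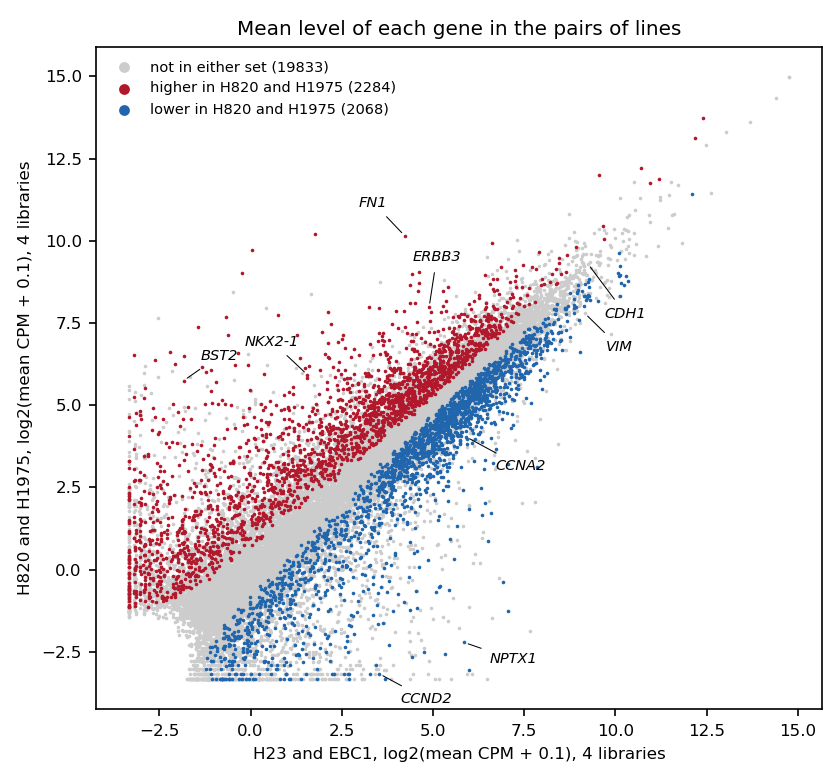
Mean level of each of 24185 genes in the 4 H820 and H1975 libraries (vertical axis) against the 4 H23 and EBC1 libraries (horizontal axis), both as log2(mean CPM + 0.1). Red points are the 2284 genes higher and blue points the 2068 genes lower in H820 and H1975, and grey points are the rest. CDH1 and VIM lie among the grey points.

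Lung identity beyond the NKX2-1 locus was patchy. Of 30 tested lung lineage transcription factors, 6 were higher and 2 lower, with a median log2 difference of 1.65. Among the higher ones was IRX5, an Iroquois homeobox factor of airway branching, with 7.43, 16.3, 15.9 and 18.3 CPM in H820 and H1975, against 2.16, 2.77, 5.29 and 4.42 CPM in H23 and EBC1. HOPX, a homeodomain cofactor of type I alveolar cells, reached only 0.339 to 1.14 CPM in H820 and H1975, against 0 to 0.101 CPM in H23 and EBC1. CEBPA and ID2 were also among the higher members. Without treated H820 the median of the list was 0.61. FOXA1, FOXA2 and GATA6, the endoderm factors that act beside NKX2-1, did not separate the pairs. FOXA1 had 137 and 97.6 CPM in H820 but 1.18 and 0.873 CPM in H1975, against 4.22 and 3.98 CPM in H23 and 44.1 and 33.8 CPM in EBC1. FOXA2 showed the reverse within the first pair, with 0.325 and 0 CPM in H820 and 15.1 and 15.0 CPM in H1975, against 0.201 and 0.0803 CPM in H23 and 24.2 and 17.3 CPM in EBC1. The 2 lines with NKX2-1 thus each held a different FOXA gene.

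Surfactant protein and club cell genes, the best known products of NKX2-1, were low in all 4 lines. SFTPB had at most 0.283 CPM, SFTPC and SFTPA1 at most 0.0448 CPM, SFTPA2 at most 1.95 CPM, reached in treated H820, SFTPD at most 1.004 CPM, reached in untreated H23, and the club cell genes SCGB1A1 and SCGB3A2 had 0 counts in every library. In H820 and H1975 the marker NKX2-1 was thus present and the surfactant products that define alveolar cells were at most at these levels. Of 20 tested alveolar and club cell genes, 7 were higher and 0 lower, with a median log2 difference of 0.75, and 5 were higher and 2 lower without treated H820. LAMP3, a lysosomal membrane protein of type II cell lamellar bodies, had 24.2, 17.3, 21.3 and 21.8 CPM in H820 and H1975, against 5.63, 4.14, 2.42 and 2.11 CPM in H23 and EBC1. EMP2, a tetraspan protein of type I cells, had 99.3, 69.4, 224.7 and 215.7 CPM, against 25.4, 25.1, 46.5 and 43.2 CPM. NAPSA, the aspartic protease that is stained beside NKX2-1 in diagnosis, had 3.76, 2.37, 2.83 and 4.24 CPM in H820 and H1975, against 1.01, 1.57, 2.24 and 1.92 CPM in H23 and EBC1. Its gap was small and its level low in every line. The alveolar marker ABCA3 did not separate the pairs. It had 41.7, 55.6, 62.0 and 62.6 CPM in H820 and H1975, against 41.9, 41.6, 58.1 and 44.4 CPM in H23 and EBC1. The whole list summed to 636 to 1902 CPM in H820 and H1975. In H23 the sum was 414 and 411 CPM and in EBC1 2808 and 2503 CPM, so it overlapped between the pairs.

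Of 15 tested genes reported as NKX2-1 targets in lung, 4 were higher and 2 lower, with a median of 0.38. SELENBP1, a selenium-binding protein lost in many carcinomas, had 56.9, 46.2, 33.5 and 36.4 CPM in H820 and H1975, against 0, 0.0803, 0.628 and 0.769 CPM in H23 and EBC1. TESC, a calcium-binding protein, ran the other way, with 0, 0, 0 and 0.0437 CPM in H820 and H1975, against 2.92, 2.45, 1.17 and 0.961 CPM in H23 and EBC1. DUSP6, also lower, is given with the MAP kinase genes.

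Mucins and secretory glycoproteins had the largest share of higher genes among the lists of 12 or more. Of 24 tested mucin and secretory glycoprotein genes, 12 were higher and 0 lower, with a median log2 difference of 3.72. MUC5B, the main gel-forming mucin of airways, had 61.8 and 83.5 CPM in treated and untreated H820 and 1.70 and 1.66 CPM in H1975, against 0.0503 and 0.0803 CPM in H23 and 0 in EBC1. PIGR, which carries IgA across epithelia, had 81.9, 33.2, 2.41 and 3.10 CPM, against 0, 0, 0.224 and 0 CPM. H820 held most of both, and H1975 lay well below H820 yet above the other lines. MUC16, the CA125 mucin, had its highest levels in H1975, with 319 and 238 CPM in H820 and 1689 and 1672 CPM in H1975, against 91.5, 86.9, 81.8 and 132 CPM in H23 and EBC1. CREB3L1, a membrane-bound factor that regulates secretory capacity, was nearly even across the pair, with 30.5, 23.2, 36.0 and 32.1 CPM, against 2.72, 2.17, 0 and 0 CPM.

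Of 23 tested gastric and gut lineage genes, 8 were higher and 0 lower, with a median of 4.02. TFF1, a trefoil peptide of gastric mucus, had 10.3, 13.4, 1.23 and 1.09 CPM in H820 and H1975, against 0, 0, 0.0897 and 0 CPM in H23 and EBC1. MUC2, the intestinal gel mucin, had 20.4, 13.6, 0.707 and 0.611 CPM, against 0.101, 0.121, 0.0897 and 0 CPM. TSPAN8, a tetraspanin of gut epithelium, was even, with 0.896 to 1.53 CPM in H820 and H1975 and at most 0.179 CPM in H23 and EBC1. Apart from TSPAN8, the genes named here were much higher in H820 than in H1975. The summed level of the whole list was 525 and 695 CPM in treated and untreated H820, 39.7 and 42.7 CPM in H1975, 36.7 and 33.7 CPM in H23, and 117 and 113 CPM in EBC1, so the sum overlapped between the pairs.

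**Figure D3:**
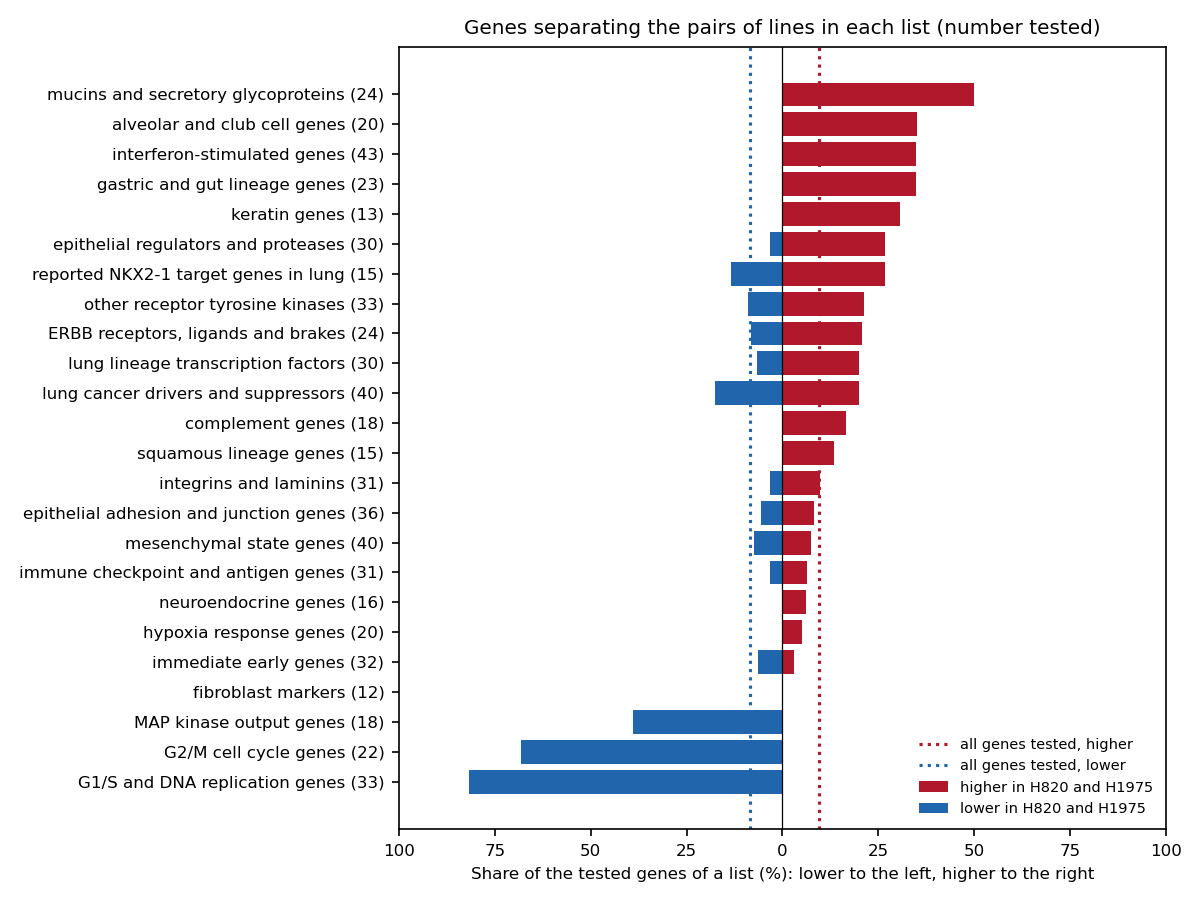
Share of the tested genes of each list of 12 or more genes that were higher (red, to the right) or lower (blue, to the left) in H820 and H1975, in percent, with the number tested in brackets. Dotted lines give the shares over all genes tested, 9.44% and 8.55%. Mucins and secretory glycoproteins extend farthest to the right and G1/S and DNA replication genes farthest to the left.

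ERBB3, on chromosome 12 at 56473645 to 56497289, had 351 and 237 CPM in treated and untreated H820 and 217 and 206 CPM in H1975. It had 10.2 and 10.8 CPM in H23 and 52.1 and 45.3 CPM in EBC1, a log2 difference of 3.45 ± 0.13. ERBB2, its usual partner, had 175, 128, 165 and 168 CPM, against 49.3, 47.2, 122 and 90.7 CPM, a log2 difference of 1.15 ± 0.12. EGFR narrowly failed to separate the pairs, since untreated H820 had 222.5 CPM and treated EBC1 261.8 CPM. H1975 had the most EGFR RNA, with 570 and 565 CPM. Of 24 tested ERBB receptors, ligands and brakes, 5 were higher and 2 lower, with a median of 0.29. CBLC, a ubiquitin ligase that acts on activated EGFR, had 130, 108, 31.1 and 29.8 CPM in H820 and H1975, against 2.06, 1.33, 0 and 0 CPM in H23 and EBC1. EGF itself had 26.7 and 25.9 CPM in H820 and 1.04 and 0.873 CPM in H1975, against at most 0.628 CPM. The median of this list lay between 0.19, without either treated H23 or untreated EBC1, and 0.71, without treated EBC1. The neuregulin gene NRG2, which encodes a ligand of ERBB3 and ERBB4, was lower, with 0.418, 0.508, 0.189 and 0.131 CPM, against 9.10, 9.44, 5.56 and 5.57 CPM.

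Among 33 other receptor tyrosine kinases tested, 7 were higher and 3 lower, with a median of 0.19. Without untreated EBC1, 5 were lower and the median was 0.04, and without treated EBC1 the median was 0.35. KDR, the VEGF receptor of endothelium, had 6.22 to 7.51 CPM in all 4 H820 and H1975 libraries and at most 0.251 CPM in H23 and EBC1. EPHB6, an ephrin receptor without kinase activity, was lower, with 0.139 to 0.339 CPM, against 4.17 to 9.15 CPM. MET was not part of the set. It had 1706 and 1177 CPM in H820 and 514 and 477 CPM in H1975. In H23 it had 63.2 and 59.9 CPM, and in EBC1, a line known for MET amplification, 7607 and 6789 CPM.

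Of 18 tested genes that MAP kinase signalling switches on, several of which dampen it, 7 were lower in H820 and H1975 and 0 higher, with a median log2 difference of -0.95. Of the 11 others, 3 were called higher by the mean test with overlapping libraries, and 1 was higher without either treated EBC1 or untreated H1975. The list was drawn up after the leading genes had been seen. DUSP6, the phosphatase that inactivates ERK, had 14.7 and 22.2 CPM in treated and untreated H820 and 24.7 and 17.5 CPM in H1975. It had 165 and 127 CPM in H23 and 157 and 116 CPM in EBC1, a log2 difference of -2.86 ± 0.15. The PEA3 factors ETV1, ETV4 and ETV5 were all lower. ETV1 had 7.76, 6.44, 3.49 and 3.45 CPM, against 82.6, 71.3, 37.8 and 35.9 CPM. ETV4 had 6.92, 6.94, 11.2 and 10.3 CPM, against 34.7, 32.0, 27.6 and 21.3 CPM. PHLDA1, CCND1 and SPRY4 completed the 7. CCND1, cyclin D1, had 116, 119, 134 and 136 CPM, against 492, 512, 250.6 and 207 CPM, and the feedback inhibitor SPRY4 had 5.48 to 12.5 CPM, against 16.3 to 157 CPM. H23 was the highest line for ETV1, ETV4, CCND1 and SPRY4. The summed level of the 18 genes was 785 to 1364 CPM in H820 and H1975 and 1964 to 2831 CPM in H23 and EBC1, without overlap.

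The epithelial marker CDH1 and the mesenchymal marker VIM did not divide the lines by pair. Of 36 tested adhesion and junction genes, 3 were higher (8.33%) and 2 lower (5.56%), although 30 had a positive difference and the median was 1.35. These shares were near those of all genes tested, 9.44% and 8.55%. Outside the set the mean test called 24 junction genes higher and 2 lower. Without untreated H820, 7 were higher and 1 lower, and 6 were higher without treated EBC1. CDH1, E-cadherin, had 498, 332, 860 and 844 CPM in H820 and H1975, against 1.66 and 2.01 CPM in H23 and 1285 and 1132 CPM in EBC1. H23 was the line without E-cadherin, and EBC1 had more than either line with high NKX2-1. VIM, vimentin, was nearly absent from H820 alone, with 2.28 and 1.69 CPM there and 446 and 442 CPM in H1975, against 822 and 904 CPM in H23 and 299 and 255 CPM in EBC1. Of 40 tested mesenchymal genes, 3 were higher and 3 lower (7.5% each, also near the shares of all genes), with a median of 0.05. Without untreated H820, 6 were higher. Outside the set the mean test called 14 mesenchymal genes higher and 6 lower. The median was -0.15 without treated H820 and 0.21 without untreated H820. CDH2, N-cadherin, had 0, 0, 0 and 0.0873 CPM in H820 and H1975, against 2.62 and 2.53 CPM in H23 and 124 and 126 CPM in EBC1. FN1, fibronectin, ran the other way, with 1451, 505, 1288 and 1317 CPM, against 25.0, 21.8, 16.7 and 10.8 CPM. SPARC, a matrix glycoprotein, had 22.4, 5.93, 168 and 165 CPM, against at most 0.442 CPM. N-cadherin and fibronectin, which are often read together as mesenchymal markers, thus differed in opposite directions.

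Of 30 tested epithelial regulators and proteases, 8 were higher and 1 lower, with a median of 3.02. TMPRSS4, a transmembrane serine protease, had 266, 172, 39.2 and 42.9 CPM in H820 and H1975, against 0, 0.0803, 11.8 and 10.6 CPM in H23 and EBC1. HPN, hepsin, had 13.3, 9.32, 6.74 and 7.29 CPM, against 0.352, 0.321, 0.762 and 0 CPM. KLK10, a kallikrein protease, was the lower member, with 0.339 to 1.63 CPM, against 5.58 to 49.3 CPM. Of 13 tested keratins, 4 were higher and 0 lower, all 13 had a positive difference and the median was 2.82. KRT17, a keratin of basal and injured epithelium, had 1.63, 3.05, 10.8 and 10.2 CPM, against at most 0.151 CPM. The squamous factor TP63 was not in the set, since it was high only in H1975, with 86.7 and 87.2 CPM, and had at most 0.372 CPM in H820, 1.89 CPM in H23 and 0.314 CPM in EBC1. EBC1, labelled squamous, thus held little TP63, and KRT5 and KRT14, keratins of squamous epithelium, had at most 0.142 CPM in any library. Of 15 tested squamous lineage genes, 2 were higher, FAT2 and PAX9, and 0 lower, and 5 were higher without treated H820. The whole squamous list summed to 137 and 140.1 CPM in treated and untreated H820 and 684 and 694 CPM in H1975, against 161 and 172 CPM in H23 and 359 and 286 CPM in EBC1.

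Interferon-stimulated genes were higher in H820 and H1975 in 15 of 43 tested cases and lower in 0, and 42 of the 43 had a positive difference, with a median of 2.26. The list was drawn up after BST2 had been seen to lead the set. BST2, tetherin, which holds budding viruses at the cell surface, had 40.4, 35.9, 72.4 and 66.2 CPM in H820 and H1975, against 0.151, 0.201, 0.179 and 0.192 CPM in H23 and EBC1. Its log2 difference was 8.12 ± 0.20, and it had the widest gap between line means of the higher protein-coding genes with a mean of at least 5 CPM in H820 and H1975. IFI27, a mitochondrial interferon-induced protein, had 20.1, 21.2, 366 and 415 CPM, against 0.704, 0.402, 0.404 and 0.576 CPM. IFITM1, which blocks viral entry, had 51.6, 15.4, 156 and 163 CPM, against 0.905, 0.562, 0.538 and 0.769 CPM. MX2, a dynamin-like antiviral GTPase, had 20.6, 12.02, 26.5 and 23.2 CPM, against 0, 0, 0.448 and 0.192 CPM. These genes were near silence in both H23 and EBC1. IFI27 and IFITM1, and with them MX1, OAS2 and XAF1, were higher in both H1975 libraries than in both H820 libraries.

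Components of the pathway and its other products were split. STAT2 and IRF9, which act together in the factor that interferon activates, were both higher. STAT2 had 120, 89.9, 124 and 123 CPM in H820 and H1975, against 61.4, 61.5, 44.7 and 36.9 CPM in H23 and EBC1. IRF9 had 44.9, 41.2, 97.8 and 91.6 CPM, against 24.9, 25.6, 28.4 and 25.2 CPM. ISG15 and IFI6 overlapped because H820 lay within the range of H23 and EBC1. ISG15 had 10.96, 11.9, 65.5 and 67.8 CPM, against 14.8, 15.1, 16.6 and 9.03 CPM.

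Promoters of 3 of the interferon-stimulated genes with the widest gaps are shown with the interferon-stimulated response element, GAAANNGAAA, in capitals, searched on both strands and counted without overlap (RefSeq, GRCh38.p14). They are at chr19:17405581-17405880 (minus strand), chr14:94110486-94110785 (plus strand) and chr11:313790-314089 (plus strand).
BST2: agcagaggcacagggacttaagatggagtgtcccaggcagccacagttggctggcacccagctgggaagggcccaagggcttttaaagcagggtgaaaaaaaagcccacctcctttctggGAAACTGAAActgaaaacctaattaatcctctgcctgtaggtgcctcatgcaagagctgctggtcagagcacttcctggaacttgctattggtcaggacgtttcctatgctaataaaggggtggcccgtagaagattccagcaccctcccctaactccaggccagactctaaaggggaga
IFI27: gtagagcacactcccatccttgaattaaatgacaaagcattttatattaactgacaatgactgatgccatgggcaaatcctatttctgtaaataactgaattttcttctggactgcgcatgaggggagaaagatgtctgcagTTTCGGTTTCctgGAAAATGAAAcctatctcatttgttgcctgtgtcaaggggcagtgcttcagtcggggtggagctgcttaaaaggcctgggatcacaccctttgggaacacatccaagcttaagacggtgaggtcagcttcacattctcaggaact
IFITM1: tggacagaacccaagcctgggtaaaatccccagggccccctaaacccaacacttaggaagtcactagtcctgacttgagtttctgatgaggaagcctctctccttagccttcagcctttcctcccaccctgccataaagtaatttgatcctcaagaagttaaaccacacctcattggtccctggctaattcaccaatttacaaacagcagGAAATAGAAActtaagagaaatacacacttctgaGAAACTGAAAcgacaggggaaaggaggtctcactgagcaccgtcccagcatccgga
BST2 held 1 match, starting 130 bases before the start site, and IFI27 and IFITM1 held 2 each. The element was in 7 of 11 promoters of higher interferon-stimulated genes, 63.6%, and in 13 of 20 promoters of the other tested genes of the list, 65.0%, against 2.92% of all promoters. The element was thus about as frequent in both groups of the list. Of the 28 tested genes of the list outside the set, 25 were also called higher by the mean test. The comparison therefore cannot tell whether the element goes with a higher level in H820 and H1975.

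Complement genes, also listed after the leading genes were seen, had 3 higher and 0 lower of 18 tested, 5 higher without untreated H820 and 2 higher without untreated EBC1. CFI, the protease that inactivates C3b, had 48.1, 34.0, 9.01 and 7.73 CPM in H820 and H1975 and 0 counts in all 4 H23 and EBC1 libraries, which makes it at least 540.3-fold higher against a floor of 3 counts over those libraries, with counts pooled over the libraries of a pair. Of its transcript sequence, 30.6% was shared with another annotated gene. CFB had 1415, 721, 549 and 521 CPM, against 0.905, 0.803, 512 and 452 CPM, so that only H23 was clearly low. Among 31 checkpoint and antigen genes tested, 2 were higher and 1 lower, and 4 were higher without untreated H820. VTCN1, the B7-H4 checkpoint ligand, had 9.52, 9.15, 11.6 and 13.2 CPM in H820 and H1975, against 0, 0.0803, 0.0448 and 0 CPM in H23 and EBC1. CD274, which encodes PD-L1 itself, was not in the set, with 45.3, 24.4, 11.8 and 9.30 CPM, against 0.101, 0.201, 12.8 and 12.7 CPM.

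Cell cycle genes had the largest shares of lower genes among the lists counted. Of 33 tested G1/S and DNA replication genes, 27 were lower (81.8%) and 0 higher, with a median log2 difference of -1.44, in a list drawn up after the leading genes were seen. Of 22 tested G2/M genes, 15 were lower (68.2%) and 0 higher, with a median of -1.27, and all 22 differences were negative. MCM4, a subunit of the replicative helicase, had 54.7, 26.3, 51.0 and 49.2 CPM in H820 and H1975, against 213, 223, 309 and 264 CPM in H23 and EBC1. TYMS, thymidylate synthase, had 12.7, 3.22, 17.8 and 16.7 CPM, against 148, 148, 67.3 and 61.9 CPM. CDC7, the kinase that fires replication origins, had 8.78, 4.74, 6.70 and 7.55 CPM, against 47.1, 44.3, 32.4 and 31.3 CPM. Each subunit of that helicase, MCM2 to MCM7, was in the lower set.

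CCNA2, cyclin A2, had 24.8, 6.27, 16.4 and 18.0 CPM in H820 and H1975, against 74.4, 80.7, 43.4 and 40.2 CPM in H23 and EBC1. CCNB2, cyclin B2, had 20.1, 5.76, 16.6 and 17.9 CPM, against 40.6, 42.2, 66.5 and 65.7 CPM. MKI67, the Ki-67 proliferation marker, had 168, 21.2, 205 and 189 CPM, against 298, 330, 295 and 305 CPM. Untreated H820 stood far below treated H820 in each of these. The summed level of the G2/M list was 1446 and 340 CPM in treated and untreated H820 and 1054 and 1030 CPM in H1975, against 2384 and 2563 CPM in H23 and 1631 and 1529 CPM in EBC1. The median G2/M log2 ratio of treated over untreated was 1.84 in H820 and between -0.06 and 0.12 in the other lines. Untreated H820 was also the shallowest library, with 5559870 counts against 23783679 in treated H820, had the highest mitochondrial share, 4.07%, and held 12.2 CPM of HBA2, a haemoglobin gene, against at most 0.769 CPM elsewhere. Their part in the H820 step was not tested. Without untreated H820, which loosens the condition on order by a library, 15 of 22 G2/M genes and 27 of 33 G1/S genes were still lower, with medians of -0.94 and -1.32.

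Promoters of 2 lower G2/M genes, CCNB2 and CDC20, are shown for the pair of elements that mark this class. Capitals are TTTGAA, the cell cycle homology region, and CCAAT, the NF-Y box, on either strand, and the 2 words do not overlap here (RefSeq, GRCh38.p14, chr15:59104896-59105195 and chr1:43358731-43359030, both plus strand).
CCNB2: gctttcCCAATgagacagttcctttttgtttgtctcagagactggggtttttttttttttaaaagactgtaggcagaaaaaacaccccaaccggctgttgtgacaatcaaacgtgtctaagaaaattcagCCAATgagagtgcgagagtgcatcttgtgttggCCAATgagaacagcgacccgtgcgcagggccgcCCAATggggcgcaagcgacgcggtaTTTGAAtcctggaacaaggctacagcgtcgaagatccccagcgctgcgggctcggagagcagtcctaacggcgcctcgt
CDC20: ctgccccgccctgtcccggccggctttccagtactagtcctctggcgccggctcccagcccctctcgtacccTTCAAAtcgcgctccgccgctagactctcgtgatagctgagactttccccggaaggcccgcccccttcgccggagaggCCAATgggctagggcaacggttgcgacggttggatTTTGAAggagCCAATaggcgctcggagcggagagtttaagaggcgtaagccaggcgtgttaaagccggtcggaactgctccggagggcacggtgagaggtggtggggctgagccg
TTTGAA was in 9 of 13 promoters of lower G2/M genes, 69.2%, and in 10.3% of all promoters. CCAAT was in 12 of the 13, 92.3%, and in 36.1% of all. CCNA2, the lower G2/M gene with the widest gap between line means, held no TTTGAA in its window. CDC20, the activator of the anaphase-promoting complex, had 20.8, 7.28, 17.6 and 21.8 CPM in H820 and H1975, against 54.4, 52.3, 41.7 and 28.2 CPM in H23 and EBC1.

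A neighbouring pair of CDK inhibitor genes on chromosome 9 was higher. CDKN2B, which encodes p15, had 75.8, 99.9, 70.2 and 72.0 CPM in H820 and H1975, against 5.63, 6.06, 5.69 and 3.65 CPM in H23 and EBC1. CDKN2A, its neighbour, which encodes p16 and p14ARF, had 203, 168, 66.5 and 60.2 CPM, against 14.6, 18.5, 6.95 and 4.995 CPM. Among 40 tested drivers and suppressors of lung cancer, these 2 were among 8 higher genes, and 7 were lower, with a median of -0.04 that ran from -0.16, without untreated EBC1, to 0.01, without untreated H23. SMARCA4 and SMARCA2, the alternative ATPases of the SWI/SNF remodeller, were both higher. SMARCA4 had 161, 130, 245 and 235 CPM, against 65.1, 65.2, 80.2 and 62.4 CPM. SMARCA2 had 48.5, 46.4, 49.3 and 48.8 CPM, against 1.11 and 1.57 CPM in H23 and at least 28.6 CPM in both EBC1 libraries. CCND2, cyclin D2, had 0.0465, 0, 0 and 0 CPM, against 14.6, 15.0, 6.86 and 9.22 CPM, and TERT, the telomerase catalytic subunit, had 0.511 to 1.22 CPM, against 1.73 to 22.2 CPM.

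Other genes with wide gaps came from varied families. In the higher direction PRSS21, the serine protease testisin, had 27.3, 14.9, 11.7 and 13.3 CPM in H820 and H1975 and 0 counts in all H23 and EBC1 libraries. ZNF667, a zinc finger repressor, had 18.7, 18.3, 39.1 and 36.3 CPM, against 0.0503, 0.0402, 0 and 0 CPM. RNASE1, the secreted pancreatic-type ribonuclease, had 15.4, 16.6, 20.9 and 22.4 CPM, against at most 0.121 CPM. HKDC1, a hexokinase-domain enzyme, had 37.5, 41.7, 22.5 and 21.8 CPM, against at most 0.448 CPM. ABCA12, a lipid transporter, had 294, 168, 53.4 and 52.2 CPM, against at most 1.01 CPM, and ACP5, the tartrate-resistant acid phosphatase, had 6.50, 7.62, 43.6 and 50.3 CPM, against at most 0.0503 CPM. TRIM55, a ubiquitin ligase best known from muscle, had 9.82 to 19.1 CPM, against at most 0.161 CPM. CCDC144A and RP11-219A15.1 overlap on chromosome 17 and share reads with the noncoding USP32P1 and RP11-219A15.4, so these 4 count as 1 locus. LINC01395 was the other noncoding gene named, with 9.60 to 31.5 CPM, against at most 0.302 CPM.

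In the lower direction NPTX1, neuronal pentraxin, had 0.325, 0, 0.0943 and 0.0437 CPM in H820 and H1975, against 89.6, 84.3, 32.4 and 25.2 CPM in H23 and EBC1. KLRC2, a lectin-like receptor known from natural killer cells, had 0.0465, 0, 0.0943 and 0.131 CPM, against 68.3, 60.6, 16.9 and 15.8 CPM. It overlaps RP11-277P12.6, which shares 77.7% of its transcript sequence with KLRC3, so counts within this family are uncertain. SFMBT2, a Polycomb-group protein, had at most 0.139 CPM, against 7.39, 9.07, 32.8 and 35.7 CPM. GSPT2, a translation termination factor on chromosome X, had at most 0.0465 CPM, against 4.80 to 15.5 CPM. CNRIP1, which binds a cannabinoid receptor, had at most 0.0465 CPM, against 4.54 to 8.45 CPM. KCNV1, a potassium channel subunit, had 0 counts in all H820 and H1975 libraries, against 25.2 and 21.7 CPM in treated and untreated H23 and 1.75 and 2.11 CPM in EBC1. C16orf45 and MPV17L lie side by side on chromosome 16 and share reads with RP11-1021N1.1. The noncoding DPY19L2P2, RP11-706O15.3 and RP11-578F21.12 had at most 1.35 CPM, against at least 4.53 CPM.

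Markers of cells other than tumour cells were also checked. PTPRC, the pan-leucocyte marker, had at most 0.402 CPM, MS4A1 had 0 counts and CD3E at most 0.0472 CPM. The fibroblast marker DCN had at most 0.161 CPM and the endothelial marker VWF at most 0.404 CPM. CD68, a lysosomal protein used as a macrophage marker, was however at 65.9 to 132 CPM in H820 and H1975, against 4.54 to 6.09 CPM in H23 and 125 to 152 CPM in EBC1. COL1A1, a collagen chain of fibroblasts, had 18.2 to 57.2 CPM over the 8 libraries, and COL3A1 had 12.2 and 11.96 CPM in treated and untreated H23 and 0 counts in the other lines. The 21 immune markers summed to 82.1 to 163 CPM in H820 and H1975, against 13.6 to 154 CPM in H23 and EBC1, and the 14 fibroblast markers to 56.8 to 114 CPM, against 27.5 to 175 CPM. Of 9 immune and 12 fibroblast markers tested, 0 were in the set in either direction, while without untreated H820 2 immune markers were higher, and without either treated H23 or treated H820 1 fibroblast marker was. Of 6 endothelial markers tested, KDR and PLVAP were higher, and PLVAP had only 0.139 to 2.36 CPM in H820 and H1975. The endothelial marker CDH5 had 4.57 and 3.80 CPM in treated and untreated H1975 and 0.790 and 0 CPM in H820. In H23 and EBC1 it had at most 0.0803 CPM. The immune marker CD14 had 4.67 and 6.11 CPM in H1975 and 0.604 and 1.69 CPM in H820. It had 1.16 and 1.45 CPM in H23 and 0.0448 and 0 CPM in EBC1. Neither CDH5 nor CD14 was in the set, but the mean test called both higher.

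The set was not evenly spread over chromosomes. Chromosome 14 had 15.9% of its tested genes higher and 2.71% lower, chromosome 7 had 13.96% and 4.01%, and chromosome 22 had 13.04% and 3.51%. Chromosome 12 ran the other way, with 5.91% higher and 20.5% lower, as did chromosome 20 with 3.18% and 18.1% and chromosome 18 with 5.07% and 17.1%. ERBB3 was nonetheless a higher gene on chromosome 12. Of the 37 tested genes of the mitochondrial genome, 9 were higher, 24.3%, and 0 lower. DNA copy number was not measured here, and its part in these shares was not tested.

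Neighbouring genes often went together. The longest run had 22 consecutive tested genes, all higher, from CTC-471J1.2 to ZNF83 over 632 kb of chromosome 19, with a median log2 difference of 3.62. Most of its protein-coding genes were zinc finger genes, among them ZNF841, ZNF480, ZNF528 and ZNF808. The protocadherin alpha genes PCDHA1 to PCDHA10 made a run of 11 on chromosome 5, with a median of 2.41, but their annotated exons overlap and they share reads. The run from RP11-277P12.9 to KLRC1 on chromosome 12 held 9 lower genes over 96.2 kb, with a median of -6.42, and included KLRK1 and KLRC1 to KLRC4. On the same chromosome CCND2, TIGAR and RAD51AP1 lay in a run of 8 lower genes, and FOXM1 and TEAD4 in another run of 8.

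**Figure D4:**
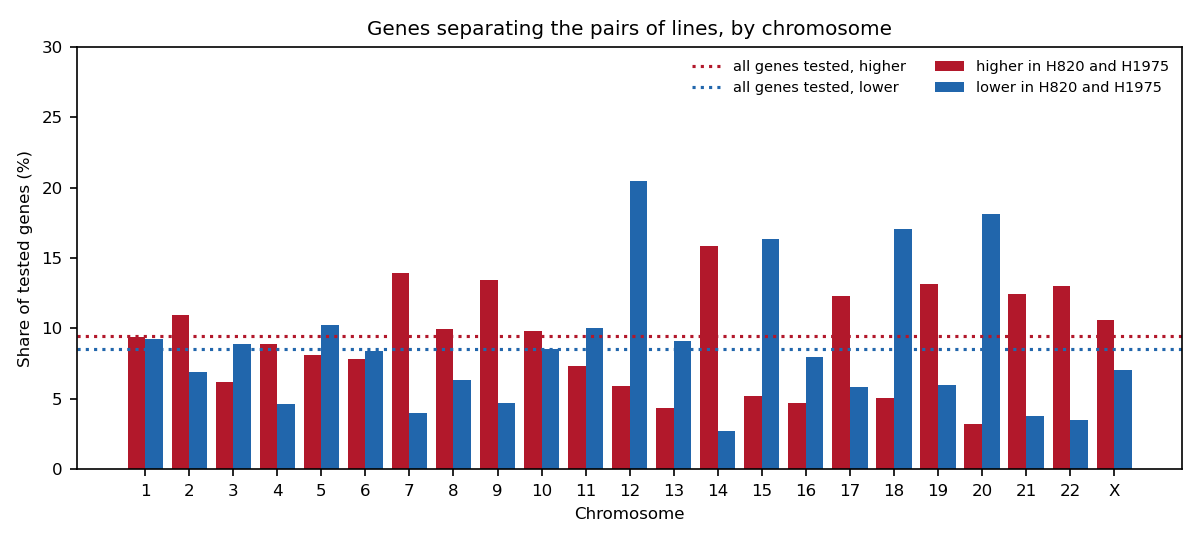
Share of the tested genes on each of chromosomes 1 to 22 and X that were higher (red) or lower (blue) in H820 and H1975, in percent. Dotted lines give the shares over all genes tested, 9.44% and 8.55%. Chromosome 14 has the tallest red bar, 15.9%, and chromosome 12 the tallest blue bar, 20.5%. Mitochondrial genes are not drawn.

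The response to PD-L1s within a line bears on the choice of the set, since the condition on order favours genes with a small step between the 2 libraries of a line. The counts of genes of the set that follow are therefore a description. By edgeR's quasi-likelihood test, 0 of the 4352 genes changed with treatment at an adjusted p under 0.05, where 9 of all genes tested, 0.0372%, did. Unadjusted p-values under 0.05 were found in 95 of the 2284 higher genes (4.16%) and 62 of the 2068 lower genes (2.998%), beside 3.61% of all genes tested. The median log2 ratio of treated over untreated in the higher genes was 0.08 in H820, -0.01 in H1975, 0.00 in H23 and 0.11 in EBC1. NKX2-1 had log2 ratios that differed in sign between H820 and H1975, as its levels above show, and the libraries kept their order under both conditions.

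The response itself differed between the pairs in 9 genes, 0.0372% of those tested, at an adjusted p under 0.05 by edgeR's interaction test, and 757 genes, 3.13%, had an unadjusted p under 0.05. Only PDK4 of these 9 was in the set. PDK4, the kinase that shuts off pyruvate dehydrogenase, had 1.95 and 13.9 CPM in treated and untreated H820 and 3.30 and 3.58 CPM in H1975, against 63.0 and 56.5 CPM in H23 and 24.0 and 18.6 CPM in EBC1. The interaction was -1.65 ± 0.36 (log2, adjusted p = 0.0465) and rested on H820, whose own log2 ratio was -2.76, whereas H1975 had -0.11. Without H820 it was -0.35. The metalloprotease gene MMP7, which was not in the set, had 1049 and 278 CPM in treated and untreated H820 and under 0.25 CPM in H1975. Its interaction was 2.01 ± 0.42 (adjusted p = 0.0374) and 2.33 without H820 (adjusted p = 1), where H1975 had 5 and 1 counts in treated and untreated spheres. A step between 2 libraries of a line has no replicate check.

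**Figure D5:**
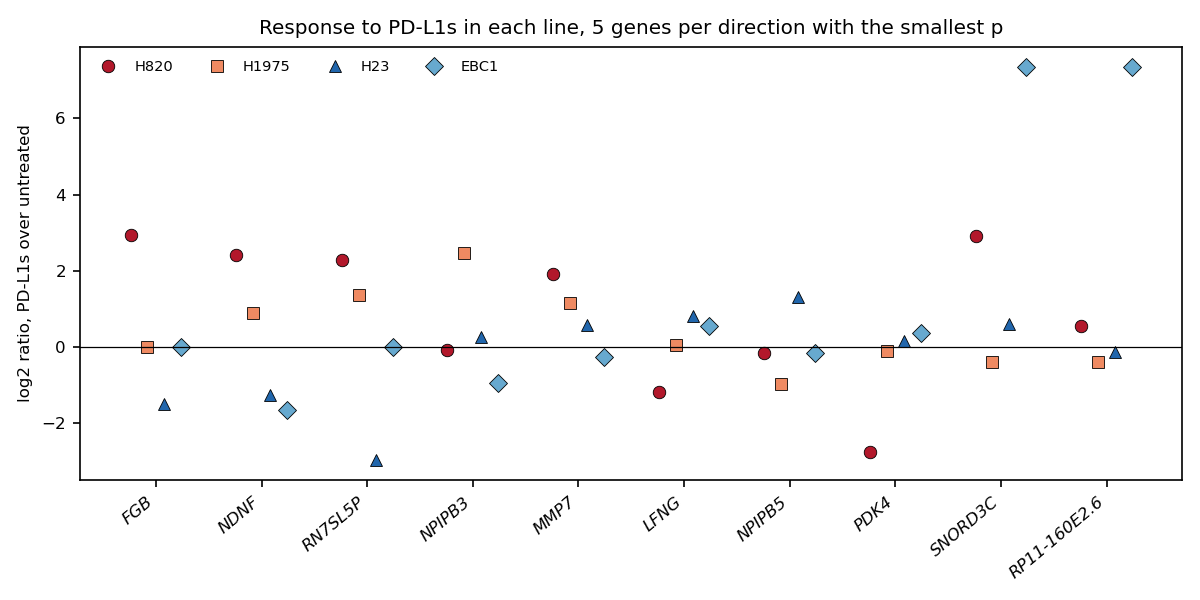
Log2 ratio of CPM in spheres given PD-L1s over untreated spheres, in each of the 4 lines, for the 5 genes per direction with the smallest p for a difference in response between the pairs of lines, among those with a mean log2 CPM of at least 1. Each point is 1 line with 1 library per condition. For PDK4 the H820 point lies at -2.76 and the other 3 lie near 0, and for SNORD3C the EBC1 point lies at 7.35.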

How the data were processed

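Total RNA libraries, ribosomal RNA removed and strand kept, were made from pneumospheres, per the labels' protocols. The authors deposited raw counts of read pairs per gene and the exonic length of each gene, which no test used. The submitters' processing notes name STAR 2.7.3a, Subread 2.0.0 and featureCounts. Per the file headers, GENCODE version 28 lifted to GRCh37 was counted on the reverse strand at a mapping quality of at least 1. Overlapping genes on a strand share reads.

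From these counts, edgeR 4.0.16 in R 4.3.3 (quasi-likelihood F test, TMM) was fitted to all 8 libraries with line and treatment as terms. The filter, a minimum count of 10 with line as the group, kept 24185 of 60106 genes. P-values were two-sided and adjusted by Benjamini-Hochberg over all genes tested. The difference in response was an interaction of line pair with treatment, with the line as the block, since both libraries of a line come from it. Totals ran from 5559870 to 27524854 counts, and were 4.28 and 4.67 times as high in the treated as in the untreated library of H820 and EBC1. Floors of 3 counts cover counting error only. On simulated data the line contrast recovered 93% of genes changed by a log2 of 1 and 100% of those changed by 2. The interaction recovered 47% and 88%, and false calls numbered 12 and 7. Apart from these changes each gene had the same mean in all simulated lines, with the spread found within lines. Those rates therefore leave out differences between lines.

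The genes and lists were chosen with earlier results of these data known, and 4 lists (interferon-stimulated, G1/S and DNA replication, complement, MAP kinase output) after the leading genes had been seen. Named were the 12 protein-coding and 3 noncoding genes per direction with the widest gap between line means and at least 5 CPM in the higher pair, up to 4 members of each list by gap, and fixed genes. For the response they were the 5 genes per direction with the smallest p and a mean log2 CPM of at least 1. Other genes named, such as IRF9, CDC20, FOXA1 and the neighbours of NKX2-1, were chosen after their values were seen. Promoters, matched by symbol for 2845 of the 4352 genes, came from RefSeq (GRCh38.p14), whereas all gene coordinates are those of the files, GRCh37. Alternatives covered other scalings, filters, tools (DESeq2 1.42.0, limma 3.58.1), membership rules and leaving out each library. Leaving out libraries from the list counts was added after seeing the data.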

Additional observations from a re-analysis of the deposited data

Results flagged for a closer look

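Among 139 groups of 4 libraries, for named genes with at least 5 CPM, 2 had a library far from the others, where chance flags about 1 in 20 groups. Both were SRF, a serum response factor of immediate early genes that was in the lower set. It had 37.6 CPM in untreated H820, against 44.9 to 46.3 CPM in the other H820 and H1975 libraries, and 71.01 CPM in treated EBC1, against 48.9 to 51.7 CPM in the other H23 and EBC1 libraries.

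The response to PD-L1s differed between the pairs in 9 genes at an adjusted p under 0.05 (edgeR). Differences are H820 and H1975 minus H23 and EBC1, log2. PDK4 had -1.647 and MMP7 2.012. NDNF, a secreted glycoprotein, had 4.405, with 25.1 and 4.57 CPM in treated and untreated H820 and at most 0.642 CPM in the other lines. FGB, fibrinogen beta, had 6.940, with 147 and 19.0 CPM in treated and untreated H820 and at most 0.201 CPM elsewhere. RN7SL5P, a copy of the signal recognition particle RNA, had 3.242, with 59.2 and 12.02 CPM in treated and untreated H820 and 51.4 and 19.9 CPM in H1975, against 4.63 and 37.1 CPM in H23 and 24.3 and 24.2 CPM in EBC1. NPIPB3 had 2.173 with 97.6% of its sequence shared with NPIPB5, and its step was in H1975, with 31.4 and 5.54 CPM in treated and untreated spheres. SNORD3C, a U3 small nucleolar RNA gene, had -6.816, and a neighbouring lincRNA gene that shares 77.8% of its sequence with SNORD3B-1 had -7.211. Both had 10 counts in untreated EBC1, against 7400 and 7446 counts in treated EBC1. RP11-44D5.2 had 9.580, with 126 and 0 counts in treated and untreated H820, and 3 and 68 counts in EBC1. Counts of near-identical copies are uncertain. Each of these differences rests on 1 library per line and condition, and their causes were not tested.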

How the results depend on the processing

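Beside 12996 called genes, 2284 higher and 2068 lower, RLE and library size scaling, a minimum count of 50, no filter, DESeq2, limma-voom, no treatment term and protein-coding genes only gave 10136 to 14106 called genes, 1724 to 2294 higher and 1687 to 2283 lower. Under library size scaling 6515 genes were called higher and 6669 lower, against 7161 and 5835, with a median over all genes of -0.04. Leaving out each library gave 10659 to 13805 called, 2260 to 2876 higher and 2079 to 2856 lower. With lines as replicates edgeR called 0 genes, 0 higher and 0 lower. Line means in place of libraries gave 3132 lower genes, a log2 difference over 1 gave 1235 lower, and each line-by-line contrast called gave 1333 higher and 1107 lower. The order of untreated libraries alone held for 3896 and 3583 genes and that of treated libraries alone for 3803 and 3772.

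The response differed in 4 genes with RLE, 57 with library size, 2 with a minimum count of 50, 0 with DESeq2 (172 at an unadjusted p under 0.05), 2 with limma-voom, 0 with protein-coding genes only and 0 without the replicate block (9 at an unadjusted p under 0.05), against 9. Leaving out a line gave 6 to 367, the highest without H1975 and the lowest without EBC1, with 15 without H820 and 11 without H23. PDK4 kept its sign in these settings, and its adjusted p ran from 2.66e-14 to 1. That of MMP7 ran from 0.000116 to 1. Treatment called 1 gene of the set with library size and 0 to 2 when a line was left out, 2 without H1975 and 1 without H23.

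FOXA2 changed sign with limma-voom (-0.019) and with lines as replicates (-0.585), and ran from -2.324 to 0.437 when a library was left out. FOXA1 (1.475) and MET (-1.861) changed sign with lines as replicates. None of these 3 was in the set. Of 103 named genes of the set 0 changed sign, which the condition on order had largely fixed. Of the 103, 94 stayed in the set in every setting that tested them other than lines as replicates. The causes were not tested. The untreated libraries of H820 and EBC1 were the shallowest, and how far depth limits the order of low genes was not tested.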

Other observations

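Few hypoxia and immediate early genes were in the set. The shares were 5.0% higher and 0% lower for hypoxia genes and 3.125% and 6.25% for immediate early genes. Over all genes tested they were 9.44% and 8.55%. Of 20 tested hypoxia genes 1 was higher, CA9, a carbonic anhydrase, with 17.4, 7.96, 9.53 and 10.4 CPM in treated and untreated H820 and treated and untreated H1975, against 0.302, 0.281, 0.179 and 0 CPM in H23 and EBC1. The list summed to 13980 and 7216 CPM in treated and untreated H820, beside 17000 and 15000 CPM in EBC1 and 3461 and 3721 CPM in H23. Without untreated H820, 2 hypoxia genes were higher. Outside the set the mean test called 10 hypoxia genes higher and 1 lower, and 14 of the 20 had a positive difference. Of 32 immediate early genes 1 was higher and 2 lower, and leaving out 1 library gave 0 to 2 higher and 1 to 3 lower. Outside the set the mean test called 13 of them higher and 10 lower. Of 31 integrins and laminins 3 were higher, 9.68%, and 1 lower, 3.23%, beside 9.44% and 8.55% of all genes tested. The share of higher genes was thus near that of all genes. Among the higher was ITGA5, a fibronectin receptor subunit. It had 144, 103, 623 and 680.0 CPM in H820 and H1975, against 39.0, 42.2, 48.0 and 41.9 CPM in H23 and EBC1. LAMB1, a laminin chain, was lower mainly through H1975, with 210 and 175 CPM in H820 and 2.92 and 3.45 CPM in H1975, against 278, 281, 815 and 712 CPM. Of 10 cancer-testis genes tested 0 were in the set. Of 16 neuroendocrine genes 1 was higher and 0 lower, and the list median was -1.26, and -0.645 without treated EBC1. Outside the set the mean test called 1 of them higher and 5 lower. The whole neuroendocrine list summed to 114 to 344 CPM in H820 and H1975 and 914.5 to 1241 CPM in H23 and EBC1, without overlap.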
